A study of Homo sapiens with 8 samples.

Results

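The expression of 8 genes of the prostate epithelial lineage and the androgen axis was described in an RNA-seq series of PNT2 cells, an immortalized human prostate epithelial line that carries the SV40 large T antigen. They were *FOXA1*, *HOXB13*, *GATA2*, *GATA3*, *SOX9*, *TP63*, *TMPRSS2* and *KLK3*, chosen by name, and they are 8 of the 33791 genes to which the deposited transcripts could be assigned. The series holds 4 groups of 2 libraries, replicates A and B of each: parental cells (WT), cells with shRNA knockdown of the ETS2 repressor factor (*ERF* KD), cells with Cas9 knockout of Capicua (*CIC* KO), and cells with both losses, labelled CIC-ERF codeletion and called *ERF* KD + *CIC* KO here. All lines derive from parental PNT2, grew in serum-containing medium and received no further treatment, and the altered lines were selected with the antibiotic of their vector. The labels do not say which hairpin, guide, clone or pool a library stands for, nor whether A and B were separate cultures, so the p-values measure the spread between these libraries, which may be technical. Each library held between 19477473 and 25813157 estimated counts.

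The targeted genes were checked first. Levels are given in CPM, counts scaled to a library of 1000000 with TMM factors between libraries. *ERF* mRNA stood at 55.9 and 55.9 CPM in WT, 81.2 and 77.8 CPM in the libraries labelled *ERF* KD, 18.8 and 11.7 CPM in those labelled *CIC* KO, and 11.6 and 10.4 CPM in *ERF* KD + *CIC* KO. Of the single lines, the one with low *ERF* mRNA was therefore that labelled *CIC* KO, and the deposited files of both carry the letter of the other line in their names. Each is called by its label below, and every direction given for them rests on those labels. The study checked its stable lines by qPCR and immunoblot, assays that are not part of the files analysed here. *CIC* mRNA, which a frameshift need not lower, was 128 and 129 CPM in WT, 109 and 109 CPM in labelled *ERF* KD, 132 and 131 CPM in labelled *CIC* KO, and 90.9 and 66.4 CPM in the double line.

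The prostate gland is lined by secretory luminal cells over a layer of basal cells. FOXA1 and GATA2 are DNA-binding factors that open chromatin for steroid receptors in luminal cells, HOXB13 is the homeobox factor that marks the prostate, and GATA3 and SOX9 act in epithelial differentiation and in gland budding. TP63 is the master factor of the basal layer. *TMPRSS2*, which encodes a membrane serine protease, and *KLK3*, which encodes prostate-specific antigen, are classical androgen-induced genes of luminal cells, and the *TMPRSS2* promoter is the usual partner in ETS gene fusions of prostate cancer. ERF and CIC are both transcriptional repressors: ERF binds GGAA sites shared with the ETS activators, and CIC binds octamers of its own.

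In WT cells, 6 of the 8 genes were measurable and 2 were at or near the detection floor, set here at 3 counts in a library. TPM, transcripts scaled to a total of 1000000 after correction for length, allow genes to be compared and ran from 71.3 ± 5.49 (SD, n = 2) for *GATA3* through 34.3 ± 3.11 for *SOX9*, 18.1 ± 1.61 for *GATA2*, 14.8 ± 4.15 for *FOXA1* and 3.58 ± 2.57 for *TMPRSS2* to 0.290 ± 0.140 for *HOXB13*. *GATA3* lay at the 85.4 and 87.6 percentiles of protein-coding genes in the WT libraries, *SOX9* at 71.6 and 75.7, and *TMPRSS2* at 45.4 and 38.5. *GATA2* (19.2 and 16.9 TPM) and *FOXA1* (11.9 and 17.7 TPM) did not differ beyond their spread, because their WT values overlapped. The same held for *HOXB13* (0.389 and 0.190 TPM) and *TP63* (0.242 and 0.0634 TPM), while the other neighbours in the order did not overlap.

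**Figure D1:**
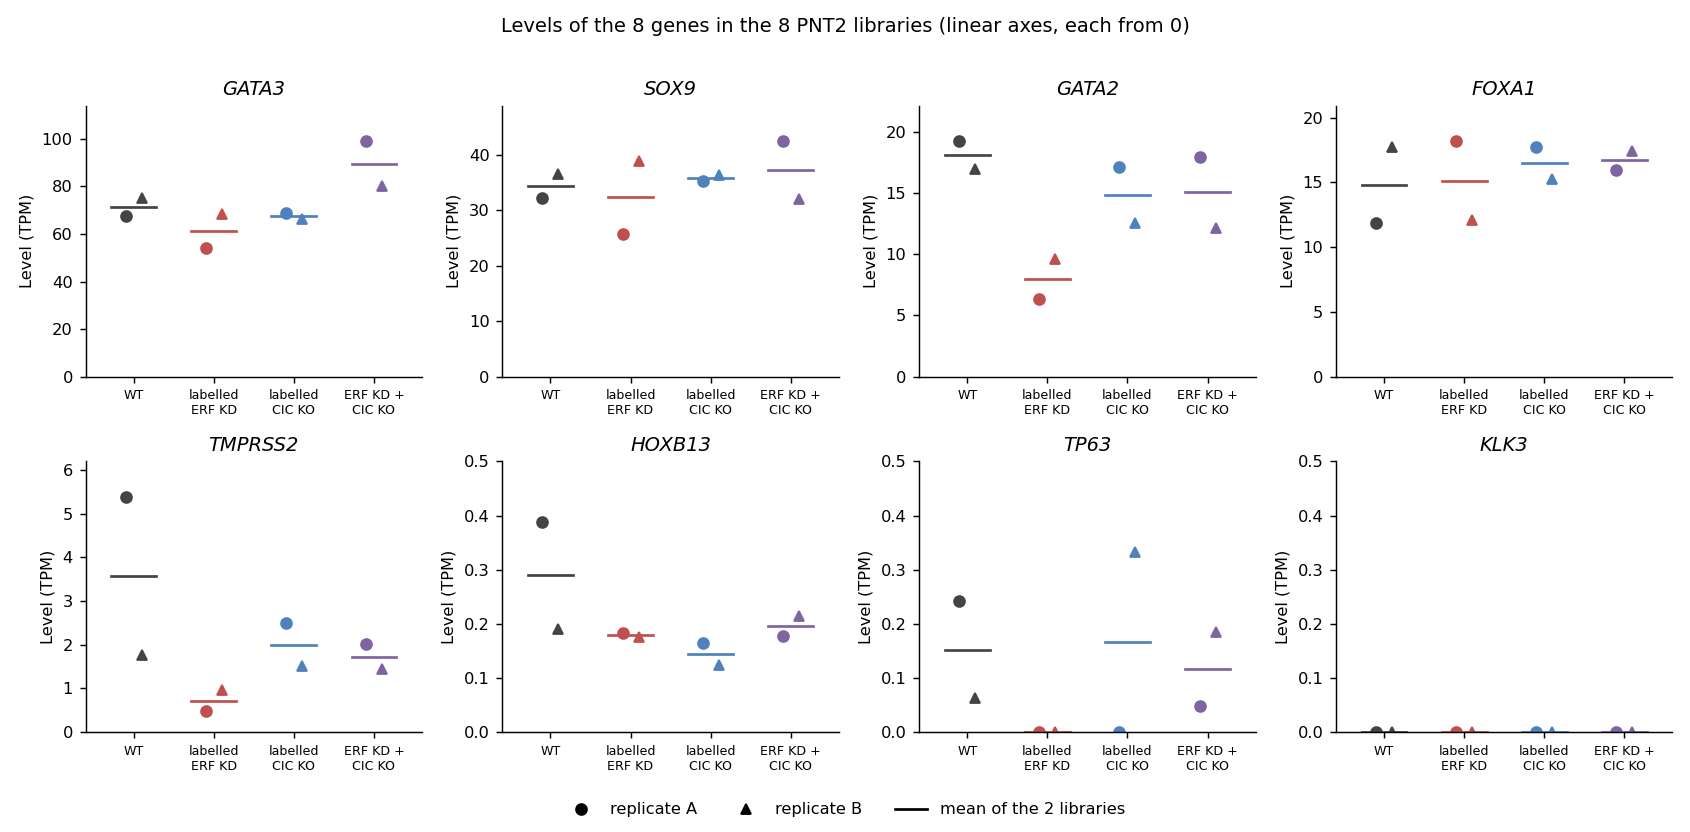
Level in TPM (y axis, linear, from 0, a scale of its own for each gene) of the 8 genes in each of the 8 libraries, by group (x axis), with circles for replicate A, triangles for replicate B and a bar at the mean of both. *TMPRSS2* and *GATA2* sit lowest in both labelled *ERF* KD libraries (0.473 and 0.965 TPM, and 6.33 and 9.59 TPM), and *KLK3* is at 0 throughout.

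*KLK3* (chr19:50854915-50860764, plus strand, GRCh38) received 0 counts in all 8 libraries, over 15 transcripts. A count of 0 allows up to 3 counts a library, or 0.116 to 0.154 CPM across the 8 libraries, here of each library's total estimated counts. This bound covers counting error only. *KLK3* was therefore not detectable in WT or in any altered line at this depth. The 250 bases upstream of its RefSeq start (GRCh38.p14) are shown because this is the textbook androgen-responsive promoter of the set. The capitals mark the steroid receptor half-site AGAACA, which was searched on both strands after the sequence had been seen, is present in 1 copy, and occurs in 12.4% of 35116 RefSeq windows of the same length.
KLK3 promoter, chr19:50854665-50854914, plus strand: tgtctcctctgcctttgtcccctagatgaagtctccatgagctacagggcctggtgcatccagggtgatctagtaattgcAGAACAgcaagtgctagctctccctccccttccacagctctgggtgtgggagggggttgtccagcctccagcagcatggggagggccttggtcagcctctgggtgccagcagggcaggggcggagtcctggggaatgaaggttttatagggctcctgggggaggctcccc

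Further genes of the secretory programme were also low or absent. *KLK2*, the nearest kallikrein relative of *KLK3* and itself androgen-induced, had 3 and 1 counts in WT and at most 5 in any library. *ACPP*, prostatic acid phosphatase, had 9 and 11 counts in WT (0.232 and 0.459 TPM), and *MSMB*, a secreted protein of luminal cells, rounded to 0 counts in every library. The epithelial keratins were abundant: WT held 1205 and 1375 TPM of *KRT8*, 1077 and 1125 TPM of *KRT18* and 108 and 138 TPM of the basal keratin *KRT5*. The cells thus carried epithelial markers, while *KLK3*, *KLK2*, *ACPP* and *MSMB*, defining products of secretory luminal cells, were at or near 0.

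*TP63* (chr3:189631416-189897279, plus strand) was at the floor as well. Rounded counts were 3 and 2 in WT, 0 and 0 in labelled *ERF* KD, 0 and 12 in labelled *CIC* KO and 1 and 3 in *ERF* KD + *CIC* KO. Labelled *CIC* KO replicate B was the single library above the floor, and its partner had no count. The gene has a long start, which gives the TA isoforms with the full activation domain, and an internal start 158.2 kb downstream, which gives the ΔN isoforms that mark basal cells. All 6 transcripts from the long start had 0 estimated counts in every library. The 8 transcripts from the internal start held every count assigned to the gene: 2.56 and 1.71 in WT, 0 and 0 in labelled *ERF* KD, 0 and 12.01 in labelled *CIC* KO, and 1.0 and 3.14 in the double line. *TP63* did not pass the filter on low counts, so neither it nor *KLK3* was tested, and no fold is given for either.

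Of the 6 genes that passed the filter, 2 were lower in labelled *ERF* KD than in WT: *TMPRSS2* and *GATA2*. A call is an adjusted p under 0.05 in edgeR's quasi-likelihood test, fitted to all 8 libraries and adjusted by Benjamini-Hochberg over 14653 genes. In this comparison 10.1% of the tested genes were called, 4.01% higher and 6.07% lower. None of the 6 was called in labelled *CIC* KO against WT, where edgeR called 0% of all genes (587 had an unadjusted p under 0.05, and DESeq2 called 26), nor in *ERF* KD + *CIC* KO against WT, where 0.0682% were called (1 gene higher and 9 lower; 1950 had an unadjusted p under 0.05, and DESeq2 called 437, of which 178 were higher). In those 2 comparisons, the 6 genes had unadjusted p-values in the quasi-likelihood test between 0.0631 (*TMPRSS2*, double line) and 0.994 (*GATA3*, labelled *CIC* KO).

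**Figure D2:**
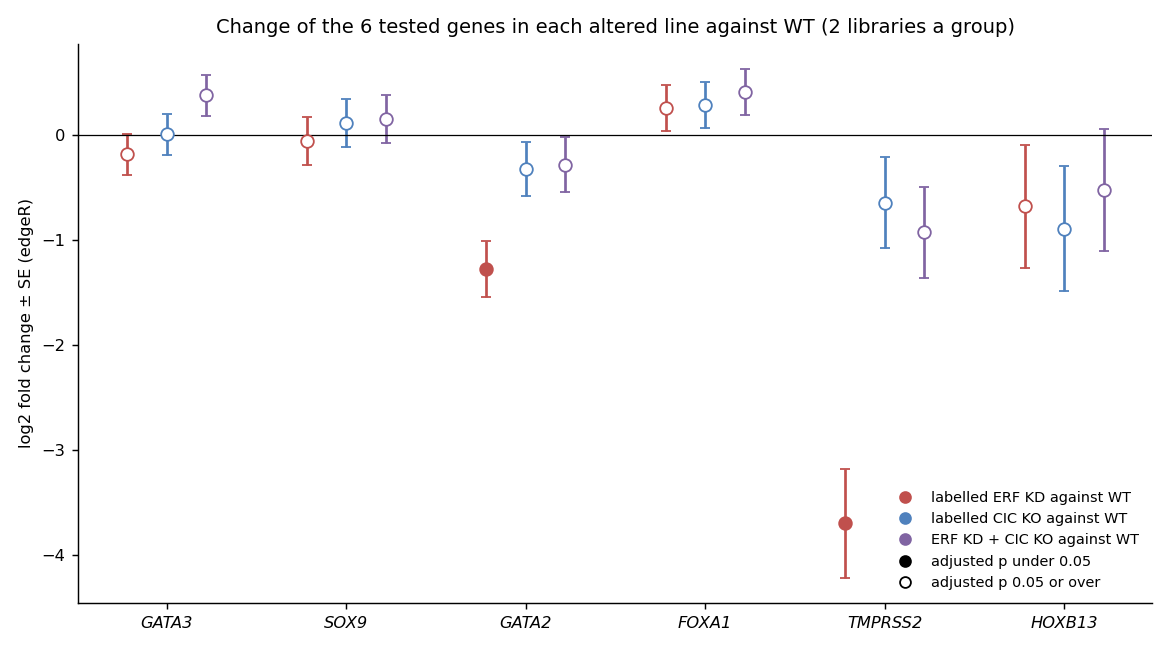
log2 fold change against WT (y axis, point) with its standard error (bar) from edgeR for the 6 tested genes (x axis) in the 3 altered lines, filled where the adjusted p is under 0.05. The 2 filled points are *TMPRSS2* at −3.70 and *GATA2* at −1.28 in labelled *ERF* KD, and the other 16 points lie between −0.93 and 0.40.

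*TMPRSS2* (chr21:41464551-41531116, minus strand) had 8.26 and 3.93 CPM in WT, 0.384 and 0.546 CPM in labelled *ERF* KD, 4.37 and 3.42 CPM in labelled *CIC* KO, and 3.89 and 2.48 CPM in *ERF* KD + *CIC* KO. In counts, these were 174 and 77, 8 and 11, 94 and 71, and 92 and 44. Both labelled *ERF* KD libraries lay below the other 6, and WT replicate A was the highest of all, while WT replicate B lay within the range of the labelled *CIC* KO libraries. The log2 fold change of labelled *ERF* KD against WT was −3.70 ± 0.515 (SE; adjusted p = 0.00342 in edgeR's quasi-likelihood test). The mean level was 13.1 times higher in WT in CPM. Leaving out each library in turn kept this call, with values between −4.13 and −3.07. For labelled *CIC* KO the log2 fold change was −0.65 ± 0.430 (adjusted p = 0.9997 in edgeR), and for the double line −0.93 ± 0.434 (adjusted p = 0.3996 in edgeR), so neither exceeded the spread between libraries.

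The size of the *TMPRSS2* difference depended on the scale. In TPM, the values were 5.39 and 1.76 in WT, 0.473 and 0.965 in labelled *ERF* KD, 2.49 and 1.51 in labelled *CIC* KO, and 2.02 and 1.44 in the double line, so that the WT mean was 4.98 times that of labelled *ERF* KD. On log2(TPM + 0.1) the difference was −2.03 and on log2(TPM + 1) it was −1.30, both short of the threshold in limma (adjusted p = 0.0867 and 0.0975). On length-scaled counts it was −2.23 in edgeR (adjusted p = 0.120). The transcripts behind both scales were therefore compared. In labelled *ERF* KD replicate B, the retained-intron transcript TMPRSS2-209, which is short, took 4.46 of the 11 counts but 0.792 of the 0.965 TPM. Retained-intron transcripts made up 52.5% and 82.1% of the *TMPRSS2* TPM in the labelled *ERF* KD libraries and at most 10.9% in the other 6. The remaining *TMPRSS2* transcripts summed to 0.224 and 0.173 TPM in labelled *ERF* KD against 4.80 and 1.76 TPM in WT, on counts of 6.84 and 6.54 in the former. TMPRSS2-201 carried most of the WT counts (136 and 77.0), whereas TMPRSS2-202, of nearly the same length, took 68.9 counts in labelled *CIC* KO replicate A and none in replicate B. Such sharing between near-identical transcripts is uncertain in estimated counts, and the gene total does not depend on it.

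*GATA2* (chr3:128479427-128493185, minus strand) had 29.2 and 25.95 CPM in WT, 8.93 and 13.8 CPM in labelled *ERF* KD, 24.6 and 19.3 CPM in labelled *CIC* KO, and 26.7 and 18.5 CPM in the double line. As for *TMPRSS2*, both labelled *ERF* KD libraries lay below all others, while the ranges of labelled *CIC* KO and the double line overlapped each other and the latter reached into that of WT. The log2 fold change in labelled *ERF* KD was −1.28 ± 0.266 (adjusted p = 0.0201 in edgeR), and the WT mean was 2.43 times higher in CPM. The call was lost without WT replicate A (−1.20, adjusted p = 0.105 in edgeR), without WT replicate B (−1.36, adjusted p = 0.0647) and without labelled *ERF* KD replicate A (−0.998, adjusted p = 0.0871), and the direction was kept in each. It was also lost on length-scaled counts (−1.14, adjusted p = 0.0566 in edgeR) and on log2(TPM + 1) (−1.11, adjusted p = 0.0545 in limma), and was made on log2(TPM + 0.1) (−1.20, adjusted p = 0.0485 in limma). For labelled *CIC* KO the value was −0.33 ± 0.259 and for the double line −0.29 ± 0.259, neither of them called.

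*GATA2* has alternative first exons 4.7 kb apart, a distal start used in blood and neural cells and a proximal start used more widely, and the counts from both could be followed. The distal transcripts (GATA2-201 and GATA2-206) had 19.2 and 13.2 CPM in WT, here of the library's total estimated counts, 5.32 and 6.92 in labelled *ERF* KD, 14.5 and 8.42 in labelled *CIC* KO and 15.2 and 8.21 in the double line. The proximal transcript (GATA2-203) had 4.58 and 5.95 in WT, 1.61 and 2.36 in labelled *ERF* KD, 5.61 and 4.90 in labelled *CIC* KO and 4.38 and 4.08 in the double line. The 2 labelled *ERF* KD libraries were the lowest for both starts, and the distal start carried more of the counts in every library. These values are a description and were not tested by transcript.

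**Figure D3:**
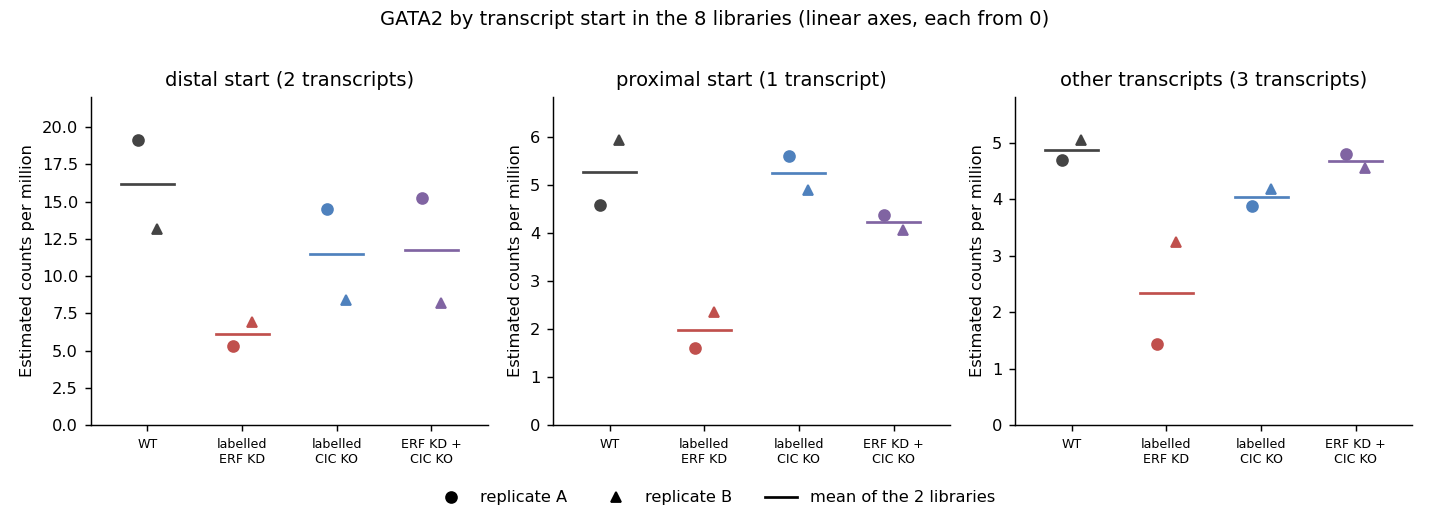
Estimated CPM, of the library's total (y axis, linear, from 0) of *GATA2* transcripts from the distal start, from the proximal start and of the remaining transcripts, in each of the 8 libraries by group (x axis), with circles for replicate A, triangles for replicate B and a bar at the mean. In all 3 panels both labelled *ERF* KD libraries are the lowest, for example 5.32 and 6.92 against 19.2 and 13.2 in WT at the distal start.

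Both *GATA2* promoter windows are shown because the gene was lower from either start. They are the 250 bases upstream of the RefSeq starts (GRCh38.p14), read along the gene on the minus strand. The capitals mark GGAA or its complement TTCC, the core that ETS factors and ERF bind.
GATA2 distal promoter, chr3:128493202-128493451: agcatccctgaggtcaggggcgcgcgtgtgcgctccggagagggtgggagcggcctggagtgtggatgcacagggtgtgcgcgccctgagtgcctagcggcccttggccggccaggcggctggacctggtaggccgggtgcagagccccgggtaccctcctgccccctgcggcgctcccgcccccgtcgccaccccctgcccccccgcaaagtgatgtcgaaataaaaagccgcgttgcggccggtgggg
GATA2 proximal promoter, chr3:128488531-128488780: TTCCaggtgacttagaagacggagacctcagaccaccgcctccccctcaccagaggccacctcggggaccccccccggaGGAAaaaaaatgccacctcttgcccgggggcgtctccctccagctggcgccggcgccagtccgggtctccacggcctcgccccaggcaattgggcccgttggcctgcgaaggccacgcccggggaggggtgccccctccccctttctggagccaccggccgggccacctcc
The distal window holds 0 such cores and the proximal window 2. Of the 35116 RefSeq windows, 92.7% hold at least 1 core, with a median of 3, and 76.5% hold at least 2. The letters bound by CIC (TGAATGAA, TGAATAAA, TCAATGAA and TCAATAAA, on both strands) were in neither window, nor in any of the 11 windows listed for 5 of the genes, against 4.0% of all windows. RefSeq windows were listed for *FOXA1*, *GATA2*, *GATA3*, *KLK3* and *TP63*. A match of these letters is a description and not a binding site.

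*GATA3* (chr10:8045378-8075203, plus strand), the most abundant of the 8, was not called in any comparison with the fit described above. It had 112 and 129 CPM in WT, 86.8 and 125 CPM in labelled *ERF* KD, 113 and 128 CPM in labelled *CIC* KO, and 172 and 140 CPM in *ERF* KD + *CIC* KO. Both double-line libraries were above the other 6, with a log2 fold change of 0.37 ± 0.196 against WT (adjusted p = 0.452 in edgeR) and 0.56 ± 0.196 against labelled *ERF* KD (adjusted p = 0.110 in edgeR). The latter was called with the replicate letter as a block (0.58, adjusted p = 0.0486 in edgeR), with no filter on low counts (adjusted p = 0.0180) and without labelled *ERF* KD replicate B (0.85, adjusted p = 0.0476). In labelled *ERF* KD, where its paralog *GATA2* was lower, the log2 fold change of *GATA3* was −0.19 ± 0.196 (adjusted p = 0.616 in edgeR). The reads came mainly from GATA3-202, with 1807 and 1938 estimated counts in WT, and from GATA3-201, with 523 and 541.

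*SOX9* (chr17:72121020-72126420, plus strand) had 81.6 and 102 CPM in WT, 67.8 and 108 CPM in labelled *ERF* KD, 92.6 and 105 CPM in labelled *CIC* KO, and 111 and 91.5 CPM in the double line. The groups overlapped, and the log2 fold changes against WT were −0.06 ± 0.229, 0.11 ± 0.229 and 0.15 ± 0.229 in that order. The spread within labelled *ERF* KD was larger than any difference between group means.

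*FOXA1* (chr14:37589984-37596059, minus strand) had 14.5 and 21.5 CPM in WT, 24.1 and 18.6 CPM in labelled *ERF* KD, 21.9 and 21.7 CPM in labelled *CIC* KO, and 24.4 and 23.1 CPM in the double line. WT replicate A was the lowest library of the 8. The log2 fold changes against WT were 0.25 ± 0.219, 0.28 ± 0.219 and 0.40 ± 0.219, none of them called. The exons of *FOXA1* share 16 bases with those of *TTC6* on the opposite strand, the only such overlap found among the 8 genes.

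*HOXB13* (chr17:48724763-48729178, minus strand) was close to the floor in every library, with 19 and 10 counts in WT, 9 and 9 in labelled *ERF* KD, 9 and 7 in labelled *CIC* KO and 10 and 10 in *ERF* KD + *CIC* KO. WT replicate A alone stood above the rest. The log2 fold changes against WT, −0.68 ± 0.585, −0.89 ± 0.592 and −0.52 ± 0.580, carried standard errors of a similar size, so that a change of that size was not detectable at this depth. Of the 9 other genes listed from the *HOXB* cluster, *HOXB1* to *HOXB9*, *HOXB1* had 0 counts in every library and 8 passed the filter. None of these was called in any comparison in the edgeR fit described above, and their median log2 fold change in labelled *ERF* KD was 0.26. There, 1 of them was called higher with DESeq2, and 2 without labelled *ERF* KD replicate A, with the replicate block or with no filter on low counts.

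The double line differed from labelled *ERF* KD in the same 2 genes, both of them higher. *TMPRSS2* had a log2 fold change of 2.77 ± 0.513 (adjusted p = 0.0110 in edgeR) and *GATA2* of 0.995 ± 0.266 (adjusted p = 0.0471 in edgeR), where 11.7% of all genes were called, 6.04% higher and 5.62% lower. The 2 comparisons share the labelled *ERF* KD libraries, so they are not independent. The *TMPRSS2* call was lost without labelled *ERF* KD replicate A (2.54, adjusted p = 0.0624 in edgeR) and without double-line replicate A (2.41, adjusted p = 0.0720), and *GATA2* kept its call in 1 of the 8 fits with a library left out, that without labelled *ERF* KD replicate B. Against labelled *CIC* KO, the double line differed in none of the 6 genes, with log2 fold changes between −0.28 and 0.37, where edgeR called 0% of genes (1216 had an unadjusted p under 0.05). Labelled *ERF* KD against labelled *CIC* KO gave −3.05 ± 0.513 for *TMPRSS2* (adjusted p = 0.00786 in edgeR) and −0.95 ± 0.265 for *GATA2* (adjusted p = 0.0629 in edgeR), where 9.4% of genes were called. On the TPM scales none of these calls was made.

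The design also allows the change in the double line to be set against the sum of the changes in both single lines. This interaction was 3.42 ± 0.670 on the log2 scale for *TMPRSS2* (adjusted p = 0.0286 in edgeR), where 4.15% of genes were called. It was 1.32 ± 0.371 for *GATA2* (adjusted p = 0.102 in edgeR) and was not called for the other 4 genes. On the TPM scales the *TMPRSS2* interaction was 1.18 to 2.04 and was not called. On the deposited counts of all 8 libraries it was also called with DESeq2, with no filter and with the replicate block. With 1 library left out, it kept its call only without WT replicate B and without double-line replicate B. It was lost with any of the other 6 libraries left out (2.79 to 3.69).

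**Figure D4:**
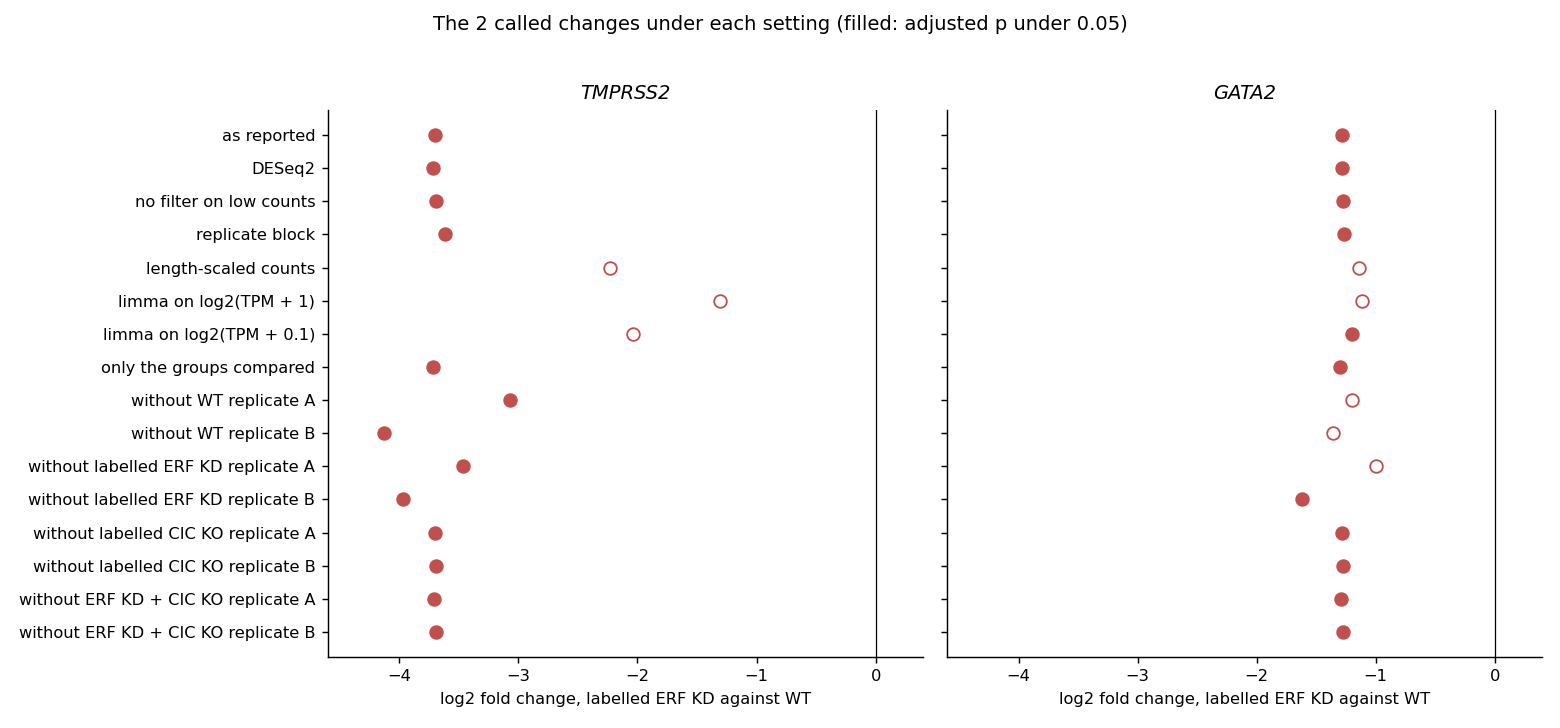
log2 fold change of labelled *ERF* KD against WT (x axis) for *TMPRSS2* and *GATA2* under each setting (y axis), filled where the adjusted p is under 0.05. *TMPRSS2* stays between −4.13 and −3.07 in every fit on the deposited counts and lies between −2.23 and −1.30 on the TPM scales, while *GATA2* stays between −1.62 and −0.998.

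Companion genes of the lineage were grouped by function and their calls in labelled *ERF* KD counted, to be read against the 6.07% of all genes that were lower and the 4.01% that were higher. These and the following lists were chosen with earlier results of these data known, so an excess over those shares is no independent result. Of 20 basal genes and p63 targets, all tested, 10 were lower and none higher in labelled *ERF* KD, with a median log2 fold change of −1.65 against 0.0058 over all genes. Among them *TRIM29* changed by −5.15, *KRT14* by −4.35 and *COL17A1*, a hemidesmosome collagen, by −3.54. The *KRT14* value rests on 18 to 27 counts in WT and 1 count in each labelled *ERF* KD library, under the floor of 3. Of 13 tested luminal genes, 4 were lower and none higher (median −0.88), led by *CDH1* at −4.41, *EPCAM* at −3.07 and *KRT19* at −0.94. Genes of the basal list and of the luminal list were therefore among those that fell. *CDH1* and *EPCAM* also serve below as markers of both layers, so their fall is not particular to luminal cells. Of 5 secretory luminal markers, 2 were tested and 0 were called. Of 16 tested further epithelial factors, 8 were lower and none higher (median −1.24), led by *OVOL1* (−4.29), *OVOL2* (−4.26) and the ETS factor *EHF* (−3.96). In the double line against WT, 15 of the 20 basal genes were lower and 5 higher, with a median of −0.52 and values from −2.07 to 0.25. The median there was −0.04 for luminal genes and 0.10 for the further factors. None of the genes of these lists was called in the double line, where 0.0682% of all genes were, or in labelled *CIC* KO against WT. The counts of calls thus refer to labelled *ERF* KD. The basal count was 5 without WT replicate B or labelled *ERF* KD replicate A and 6 without labelled *ERF* KD replicate B, and the luminal count was 2 without either WT library.

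Of 17 tested androgen-response genes, a list that holds neither *TMPRSS2* nor *KLK3*, 2 were higher and 1 lower in labelled *ERF* KD, against 4.01% higher and 6.07% lower among all genes. Their median was −0.05, over values from −4.70 to 1.03. *C1orf116*, a specifically androgen-regulated gene, fell by 4.70 on the log2 scale (730 and 1153 counts in WT, 24 and 49 counts in labelled *ERF* KD). *ABCC4*, a nucleotide and prostaglandin exporter, rose by 1.03 and *PTGER4*, a prostaglandin E2 receptor, by 0.76, and both calls were lost without any one of 6 of the libraries and on the TPM scales. *FKBP5*, a common readout of steroid receptors that was named after its values were seen, had 42 and 22 counts in WT and between 3 and 12 elsewhere, with no call. Among steroid receptors and androgen-metabolizing enzymes, 1 of 7 tested genes was lower, *ESR1* at −2.15, from 85 and 75 counts to 14 and 22, a call that was lost on the TPM scales. *NR3C1*, the glucocorticoid receptor and likewise named after its values were seen, was the most abundant gene of that list in WT (62.1 and 54.7 TPM), with a log2 fold change of 0.28 in labelled *ERF* KD that was not called.

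Of the 14 kallikrein genes listed besides *KLK3*, 7 were low as well, with at most 5 counts in any library, and did not pass the filter. Of the other 7, 5 were lower and none higher in labelled *ERF* KD, with a median of −4.29, against 6.07% lower among all genes. The log2 fold change was −5.56 for *KLK7*, −4.48 for *KLK6* and −4.45 for *KLK8*. *KLK6* had 64.6 and 87.2 TPM in WT, 2.26 and 4.51 TPM in labelled *ERF* KD, 86.2 and 87.2 TPM in labelled *CIC* KO and 86.7 and 80.0 TPM in the double line, so that only the labelled *ERF* KD libraries were low. *KLK7*, a protease of shed epidermis, had 18.4 and 24.9 TPM in WT and 0.384 and 0.496 TPM in labelled *ERF* KD. Its mean in the double line was 10.8 TPM. Of the 7 tested kallikreins, 5 were lower and 2 higher in the double line than in WT, with a median of −0.47 and no call. *KLK3* and *KLK2* were thus at or near the floor in WT cells in which *KLK6* and *KLK7* were readily counted. *KLK4*, named after its values were seen, was low but above the floor, with 23 to 29 counts in WT (mean 4.91 TPM). Reads of near-identical family members may be split between them in estimated counts. Among paralogs of the 8 genes, 2 of 6 tested were lower, against the same 6.07%: *ST14*, which encodes matriptase, a serine protease of the TMPRSS2 class, at −3.87 (43.5 and 50.2 TPM in WT, 2.86 and 3.27 TPM in labelled *ERF* KD), and *TP73*, the relative of *TP63*, at −1.31. *TP73* was called in edgeR's fit of all 8 libraries but the paralog count fell to 1 without any one of 6 of the libraries.

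**Figure D5:**
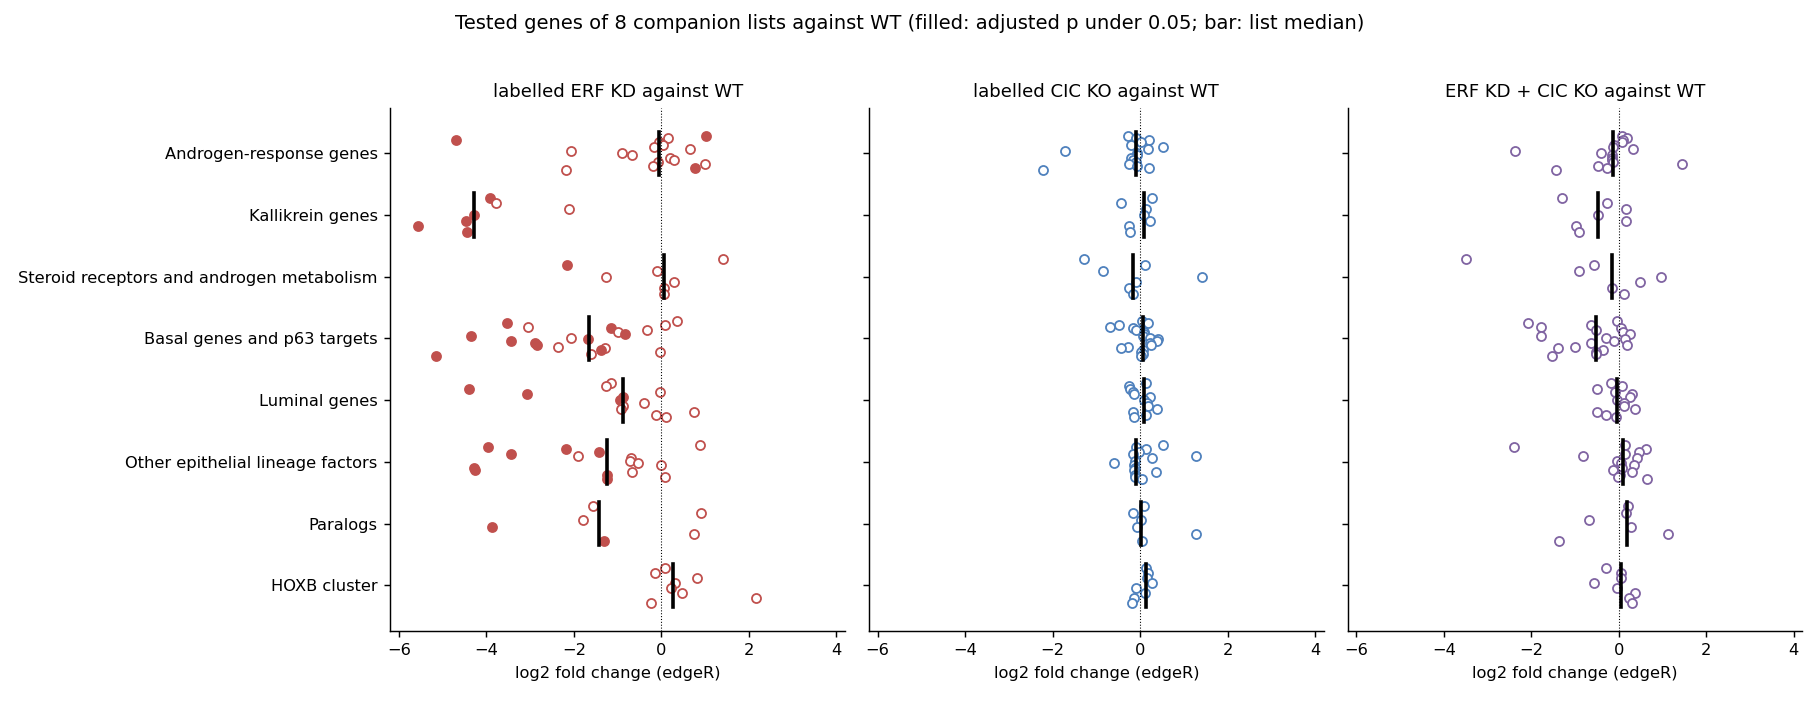
log2 fold change against WT from edgeR (x axis) of each tested gene of the 8 companion lists (y axis) in the 3 altered lines, filled where the adjusted p is under 0.05, with a bar at the list's median. Filled points occur in labelled *ERF* KD alone, where the kallikrein median is −4.29 and the androgen-response median −0.05.

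Markers of cell state were also counted. The 6 prostate epithelial markers all belong to the basal or the luminal list above, so they recount those genes and add no separate result. Of the 6 prostate epithelial markers, 5 were lower in labelled *ERF* KD and none higher, where 6.07% of all genes were lower, and their summed level was 1243 to 1427 TPM there against 2838 to 3536 TPM in the other 6 libraries. The count of 5 was 3 without WT replicate B and 2 without labelled *ERF* KD replicate A. Of the 6 mesenchymal markers, 5 were higher, where 4.01% of all genes were, and 1, *FN1*, was lower, and their sum was 1742 to 2117 TPM against 494 to 977 TPM, with *VIM* rising from 93.1 and 173 TPM to 1284 and 1592 TPM. The mesenchymal count was 3 without WT replicate A. Of the stromal markers, *LUM* had 0 counts in all libraries, *DES* and *ACTG2* at most 3 and *DCN* at most 10. *COL1A1* was readily counted, with 506 to 785 counts in WT and 618 to 1364 in labelled *ERF* KD, and was not called. *MYH11* had 51 to 69 counts in WT and 83 in labelled *ERF* KD, also without a call. *COL3A1* was called higher, at 206 and 36 counts against 9 and 11 in WT. That call was lost on the TPM scales, with only the groups compared, and without either WT library, labelled *ERF* KD replicate A or either labelled *CIC* KO library. The summed level of the 7 stromal markers was 18.2 to 32.1 TPM in labelled *ERF* KD against 14.7 to 33.5 TPM elsewhere. None of the neuroendocrine, leukocyte and endothelial markers was called against WT. The part of these markers in the lower *TMPRSS2* and *GATA2* was not tested. In bulk RNA, fewer cells of a type and less RNA per cell cannot be told apart.

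The genes most like each member across the 8 libraries were sought as a description, by Pearson's correlation of log2 CPM. For *TMPRSS2* they were *ZFAND1* (r = 0.993), *P2RY2* (r = 0.990) and *SP6* (r = 0.989), and *P2RY2* ran at 37.3 and 24.5 CPM in WT and 2.40 and 3.48 CPM in labelled *ERF* KD. For *GATA2* they were *DIP2B* (r = 0.983), *MLKL* (r = 0.975) and *CDK14* (r = 0.973). Because the labelled *ERF* KD libraries form a separate cluster in both genes, r was also taken over the other 6 libraries, where it was 0.953, 0.978 and 0.903 for the first 3 and 0.892, 0.938 and 0.849 for the latter. *TMPRSS2* and *GATA2* correlated with each other at r = 0.952 over 8 libraries and 0.819 over 6. For *GATA3* the closest were *SLC7A2* (0.990), *FAM83G* (0.979) and *CDC6* (0.968), for *SOX9* *PHLDA1* (0.967), *SYT14* (0.959) and *TNFRSF12A* (0.943), for *FOXA1* *CORO1B* (0.967), *ZNF430* (0.942) and *SNX4* (0.931), and for *HOXB13* *MTRF1* (0.931), *MKI67* (0.913) and *HTD2* (0.907). The points share their library and its depth. Each gene was picked among the 3 highest of all protein-coding genes tested, so that high values were bound to occur.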

How the data were processed

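PNT2 cells of 4 labelled groups were profiled by RNA-seq, 2 libraries a group. The authors deposited, per library, a transcript table in kallisto's format with estimated counts and TPM, and the submitters' processing notes name hg19. The aligner's version and the transcript set are not given in the sources used here. Unversioned transcript identifiers were matched to GENCODE release 29 (GRCh38): 153245 of 180253 transcripts (85%) matched, holding 93.21% to 93.34% of the counts in each library. Names and coordinates come from that release, and deposited counts and TPM were summed per gene over 33791 genes. Estimated counts were rounded to whole numbers. CPM were scaled by TMM factors.

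Genes passing filterByExpr (14653) were tested with edgeR 4.0.16 in R 4.3.3 (TMM, quasi-likelihood, all 8 libraries in 1 fit of 4 group means, Benjamini-Hochberg, adjusted p under 0.05). The biological coefficient of variation was 0.197. SE is the absolute coefficient divided by the square root of F. The code was tested on simulated data. Alternatives were DESeq2 1.42.0, no filter, a replicate block, length-scaled counts, limma 3.58.1 on log2(TPM + 1) and log2(TPM + 0.1), only the groups compared, each library left out, and an absolute log2 fold change of at least 1.

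Replicates differed beyond sampling noise in every group (chi-square per degree of freedom of 21.5 to 43.1), so none was merged. All 8 members are named. Companion genes are named where called against WT, at most 3 a list and comparison, beside defining markers and the 3 genes most correlated with each member. The members and lists were chosen with earlier results of these data known. Promoter windows come from RefSeq (GRCh38.p14). Protein sequences were not used here.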

Additional observations from a re-analysis of the deposited data

Results flagged for a closer look

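On the log2 scale, the *TMPRSS2* difference from WT in the double line departed from the sum of those in the labelled single lines. An effect of the losses and a difference between lines cannot be told apart here. *ERF* mRNA was not low in labelled *ERF* KD (81.2 and 77.8 CPM, against 55.9 and 55.9 CPM in WT). The interaction of both losses was 3.42 on the log2 scale (SE 0.670, adjusted p = 0.0286 in edgeR's quasi-likelihood test). *TMPRSS2* was at 0.384 and 0.546 CPM in labelled *ERF* KD, 4.37 and 3.42 CPM in labelled *CIC* KO and 3.89 and 2.48 CPM in *ERF* KD + *CIC* KO. The value takes both single lines in the same way, so exchanging their labels would not change it, and it rests on 8 and 11 counts in labelled *ERF* KD. It was not called on the TPM scales (1.18 to 2.04), nor with any one of 6 of the libraries left out (adjusted p between 0.0589 and 0.108 in edgeR).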

How the results depend on the processing

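The numbers of members called in the double line and labelled *CIC* KO, each against WT, and between the 2, were 0 under every setting run. In labelled *ERF* KD against WT, 2 members were called, 0 on length-scaled counts, 0 with limma on log2(TPM + 1), 1 with limma on log2(TPM + 0.1), and 1 to 2 with a library left out. In the double line against labelled *ERF* KD, 2 were called, 0 on length-scaled counts and in both limma fits, 1 with only the groups compared, 1 when a call also needed an absolute log2 fold change of 1, and 0 to 3 with a library left out. In labelled *ERF* KD against labelled *CIC* KO, 1 was called, 2 with DESeq2, 2 with no filter, 2 with the replicate block, 0 on length-scaled counts and in both limma fits, and 0 to 2 with a library left out. For the interaction, 1 was called, 2 with DESeq2, 2 with no filter, 0 on length-scaled counts and in both limma fits, and 0 to 1 with a library left out. The cause of these losses was not tested.

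Reversed signs were small and uncalled. *GATA3* in labelled *CIC* KO against WT (0.0016 in the fit reported) was −0.0017 with DESeq2, −0.040 on length-scaled counts, −0.073 and −0.074 in the limma fits on log2(TPM + 1) and log2(TPM + 0.1), −0.0046 with only the groups compared, and between −0.098 and 0.11 with a library left out. With a library left out, labelled *ERF* KD against WT ranged from −0.013 to 0.56 for *FOXA1*, from −0.47 to 0.058 for *GATA3* and from −0.43 to 0.24 for *SOX9*, and *SOX9* ranged from −0.045 to 0.28 in labelled *CIC* KO and from −0.0081 to 0.32 in the double line. Where 1 library of a group was left, its spread was taken from the other groups. *HOXB13* did not pass the filter on length-scaled counts and has no value there.

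The replicate letters were checked as pairs: the A minus B differences of 2 groups correlated at 0.099 to 0.273 over 14653 genes, and the labels do not say that a letter marks a shared culture or day, so the libraries were not treated as paired. With the replicate block, *TMPRSS2* was at −3.62 and *GATA2* at −1.27 in labelled *ERF* KD against WT, and the coefficient of variation fell to 0.142. It changed no call of a member other than *GATA2* in labelled *ERF* KD against labelled *CIC* KO (adjusted p = 0.0389 in edgeR) and *GATA3* in the double line against labelled *ERF* KD (adjusted p = 0.0486 in edgeR).

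Over all genes, labelled *ERF* KD against WT gave 1477 calls, 2671 with the block, 2577 with no filter, 790 on length-scaled counts and 620 to 1477 with a library left out. The double line against WT gave 10, and 365, 760 and 0 under the same 3 settings, 437 with DESeq2, 1 and 7 in the limma fits and 0 to 8 with a library left out. The double line against labelled *ERF* KD gave 1709, and likewise 3014, 2798 and 907, next to 1113 in the limma fit on log2(TPM + 1), and 702 to 1638 with a library left out. Labelled *ERF* KD against labelled *CIC* KO gave 1377, and 2424, 2364 and 759, 829 with only the groups compared and 729 to 1206 with a library left out. The interaction gave 608, and 1400, 1643 and 274, 1116 with DESeq2, 312 and 314 in the limma fits and 272 to 554 with a library left out. Labelled *CIC* KO gave 0 calls against WT in edgeR, 1 with the block, 123 with no filter and 26 with DESeq2, and against the double line 0, 49, 424 and 141.

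Of the companion lists in labelled *ERF* KD, the count of lower basal genes ranged from 8 to 15 over settings with all libraries, luminal genes from 3 to 8, further epithelial factors from 5 to 12, kallikreins from 4 to 6 and paralogs from 1 to 3. Depth limits *HOXB13* and *TP63*, which had under 20 counts in every library, and *TMPRSS2* in labelled *ERF* KD.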
